A study of Mus musculus with 5 samples.

Results

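The Irx, Meis and Pbx genes encode transcription factors of the TALE class, whose homeodomain carries a short extra loop between its first helices. A set of 9 was chosen by symbol, with earlier results from the same table known: Irx1, Irx2, Irx3, Irx5, Irx6, Meis1, Meis2, Meis3 and Pbx2. Of these 9 genes 8 had a row of their own, once each, among 23725 rows that name a gene. Pbx2 stood only in a row shared with the neighbouring gene Gpsm3, so no level of Pbx2 alone can be given. The values of both genotypes below are therefore a description of chosen genes, and no test was made on them.

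The RNA came from whole mouse forelimbs of the E11.5 stage, at 47 to 48 somites. The 2 Prmt5cKO samples had the genotype Prx1Cre+/-;Prmt5c/c, in which a Cre recombinase active in limb bud mesenchyme meets 2 conditional copies of Prmt5, an arginine methyltransferase gene. The 3 controls are labelled only as control, with no allele given, and both groups had a mixed C57BL/6 and Swiss Webster strain background. The question was which transcripts differ once the mesenchyme loses Prmt5. Ectoderm, muscle precursors, vessels, blood and nerve lie largely outside the Prx1Cre lineage and can keep the gene. The sources used here do not give whether a sample was 1 embryo or a pool. The deposited values are 1 FPKM (fragments per unit of transcript length, scaled to the size of the library) per gene and genotype, so no SD can be given and the sequencing depth per sample is unknown. Xist was at 0.392 FPKM in Prmt5cKO and 87.3 FPKM in control, and the Y-linked Ddx3y at 21.8 FPKM in Prmt5cKO and 0.0840 FPKM in control, so for the members, all autosomal, effects of genotype and of embryo sex cannot be told apart.

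In the early limb bud Meis1 and Meis2 are expressed in the proximal part, nearest the trunk. Retinoic acid is proposed to maintain them there, while FGF from the apical ectodermal ridge restrains them distally. Their proteins bind Pbx partners, and these complexes act in the nucleus on DNA together with Hox proteins. The Iroquois factors Irx3 and Irx5 act in early proximal and anterior limb progenitors of mice, and Irx1 and Irx2 are expressed in forming digits. Whether forelimbs of this stage need Irx3 or Irx5 was not tested. Since the whole forelimb was sequenced, the place of these transcripts along the limb was not measured, and a lower level may mean fewer cells of a type or less RNA per cell, which cannot be told apart.

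The members share the homeobox, shown here because it sets the 3 families apart by sequence. RefSeq promoter entries were matched for 6 of the 9 genes (Irx2, Irx3, Meis1, Meis2, Meis3 and Pbx2), and the homeoboxes of 5 of those 6 follow, 189 bases each, read from GENCODE M21 transcripts on GRCm38. Capitals mark the codons of the proline-tyrosine-proline loop and of the conserved core of the recognition helix. The Irx2 homeobox lies within a single exon at chr13:72630661-72630849 on the plus strand, and that of Irx3 likewise at chr8:91800499-91800687 on the minus strand. Those of Meis1 (chr11:18885615-18941733, minus strand), Meis2 (chr2:115868767-116000205, minus strand) and Pbx2 (chr17:34594424-34594848, plus strand) are each joined from 3 coding exons.
Irx2: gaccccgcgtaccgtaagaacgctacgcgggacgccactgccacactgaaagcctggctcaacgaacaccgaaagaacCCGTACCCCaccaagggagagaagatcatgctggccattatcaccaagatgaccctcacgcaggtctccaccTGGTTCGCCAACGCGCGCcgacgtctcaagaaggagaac
Irx3: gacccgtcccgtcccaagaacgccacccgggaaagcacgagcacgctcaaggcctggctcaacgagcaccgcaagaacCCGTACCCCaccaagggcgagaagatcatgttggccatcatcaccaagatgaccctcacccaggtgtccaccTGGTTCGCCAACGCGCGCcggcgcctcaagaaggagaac
Meis1: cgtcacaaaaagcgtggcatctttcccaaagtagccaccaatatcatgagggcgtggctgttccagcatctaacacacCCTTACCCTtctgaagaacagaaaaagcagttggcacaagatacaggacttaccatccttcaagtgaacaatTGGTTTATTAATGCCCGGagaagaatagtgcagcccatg
Meis2: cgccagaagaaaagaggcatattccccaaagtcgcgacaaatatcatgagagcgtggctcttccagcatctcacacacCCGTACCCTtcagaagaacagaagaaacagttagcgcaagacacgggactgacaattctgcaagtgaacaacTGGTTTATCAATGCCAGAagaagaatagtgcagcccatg
Pbx2: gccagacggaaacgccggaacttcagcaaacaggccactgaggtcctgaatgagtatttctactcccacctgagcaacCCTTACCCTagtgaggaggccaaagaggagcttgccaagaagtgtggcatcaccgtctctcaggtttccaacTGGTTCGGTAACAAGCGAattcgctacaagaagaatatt
Between Irx2 and Irx3 161 of 189 bases were identical (85.2%), and between Meis1 and Meis2 159 (84.1%). Across families the share was 47.6% between Irx2 and Meis1, 54.0% between Irx2 and Pbx2 and 50.8% between Meis1 and Pbx2. Paralogues within a family are thus close but not identical over this stretch, and the sources used here do not say how reads shared between them were assigned.

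Among the 8 members with a row of their own Irx1 had the one difference past the threshold, and it was a fall. Irx1 stood at 0.694 FPKM in Prmt5cKO forelimbs and at 3.25 FPKM in control forelimbs, so the Prmt5cKO level was 21.4% of control. The authors' deposited table gives it a log2 fold change of -2.23 (q = 1.43e-09). A row counted as changed where the mean of both genotype values reached 1 FPKM and the authors' q, an adjusted p-value, was under 0.05. Of the 8 members with a row of their own, 7 reached this level and Irx6 did not. By this rule 1 of the 8 members with a row of their own was lower and 0 were higher, while over all 12332 rows at this level 17.5% were lower, 4.44% higher and 22% changed in either direction. The choice of members used this same contrast, so nothing is read from that count. The 12332 rows include 1139 taken as untested, so the shares among tested rows alone are larger. The deposited tables hold adjusted values only, so no count at an unadjusted p can stand beside the 0. Irx1 is also the 1 member in the shorter table of 208 rows that the authors deposited, whose rows all have a log2 fold change of at least 1.003 in size.

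Irx1 was far down the range of fold changes at its level. Of 1138 tested single genes with a mean from 1 to under 2 FPKM, the range that holds Irx1, 4 had a lower log2 fold change. In the wider range from 1 to under 6 FPKM these were 5 of 3568. Called falls had a median log2 fold change of -0.86 in the narrower range and -0.68 in the wider one. Genes at 0 FPKM in either genotype were left out of both ranges. The rank describes these values and carries no replicate error.

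**Figure D1:**
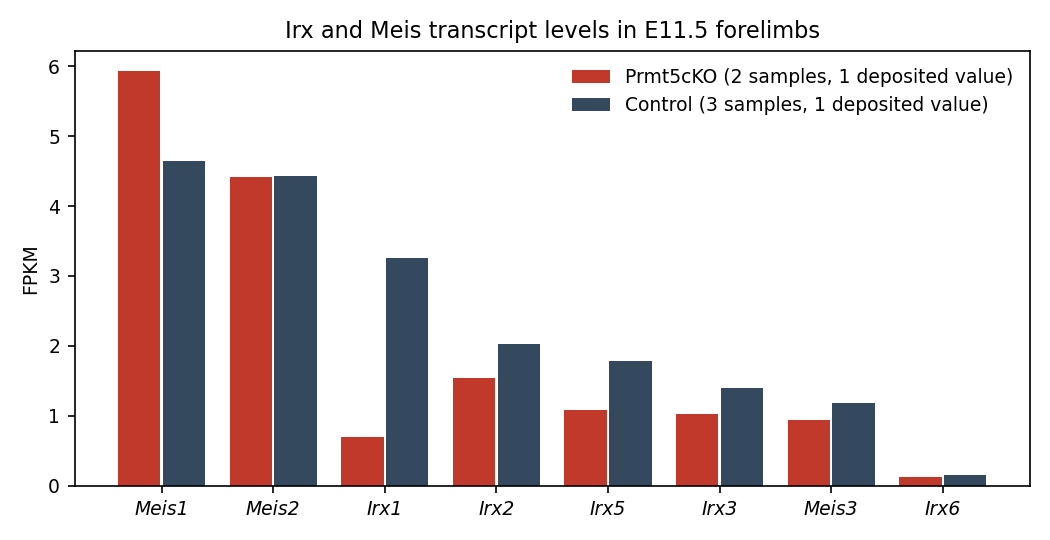
Deposited FPKM (vertical axis) of the 8 Irx and Meis genes with a row of their own, Prmt5cKO in red left of Control in dark blue, in order of the Control level. Irx1 stands at 0.694 FPKM in Prmt5cKO against 3.25 FPKM in Control, Meis1 is the gene with the higher Prmt5cKO bar, and no bar has an error because each genotype has 1 deposited value.

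None of the other 4 Iroquois members, which encode transcription factors first known from patterning in Drosophila, passed the threshold. Each had the lower value in Prmt5cKO, as did 69.8% of the 11657 single genes with a mean of at least 1 FPKM, so their shared direction is not read as a trait of the family. Irx5, which acts with Irx3 in early limb progenitors of the mouse, stood at 1.08 FPKM in Prmt5cKO and 1.79 FPKM in control (-0.72 on the log2 scale and q = 0.104, from the authors' deposited table). Irx2, the neighbour of Irx1 on chromosome 13, stood at 1.54 FPKM in Prmt5cKO and 2.03 FPKM in control (-0.40 on the log2 scale and q = 0.203, from the authors' deposited table). The remaining pair lay lower in level. Irx3 had 1.03 FPKM in Prmt5cKO and 1.40 FPKM in control, where the authors' deposited table gives a log2 fold change of -0.44 (q = 0.379). Irx6 had 0.126 FPKM in Prmt5cKO and 0.154 FPKM in control, under the minimum level in both, with a q listed as 1. Its log2 ratio lay 0.08 above the median of all genes with a pseudocount of 1 FPKM, while without a pseudocount (-0.29, authors' deposited table) it lay below the median of tested single genes, -0.13. Irx3 overlaps the antisense gene Irx3os over 1653 bases and Irx6 the antisense gene Gm45505 over 785 bases, and whether the counting used strand is not given, so reads of these pairs cannot be told apart.

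At these levels the deposited calls were fewer and reached larger fold changes. Among 1138 tested single genes with a mean from 1 to under 2 FPKM, the range of Irx1, Irx2, Irx3, Irx5 and Meis3, 12.2% were called lower, with a median log2 fold change of -0.86. Among 2344 genes from 10 to under 20 FPKM 23.2% were called lower, with a median of -0.43. The fold change of Irx5 lay inside the range of called falls at its level, whose smallest was -0.32, so a q over the threshold does not show that Irx5 was the same in both genotypes. Of the 1138 genes 127 had a lower fold change than Irx5.

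Meis1 and Meis2, the markers of the proximal limb bud, had the 2 highest levels in both genotypes among the 8 members with a row of their own. Neither passed the threshold. Meis1 stood at 5.92 FPKM in Prmt5cKO and 4.65 FPKM in control, the one of these 8 with the higher Prmt5cKO value (0.35 on the log2 scale and q = 0.173, from the authors' deposited table). Meis2 stood at 4.42 FPKM in Prmt5cKO and 4.43 FPKM in control, where the authors' deposited table gives a log2 fold change of -0.0047 (q = 0.987). Meis3, the third paralogue, stood at 0.940 FPKM in Prmt5cKO and 1.18 FPKM in control (-0.33 on the log2 scale and q = 0.557, from the authors' deposited table). The sign for Meis2 depends on the scaling, with log2 ratios of 0.13 after rescaling by the median ratio of all genes and 0.17 after quantile normalization. Meis1 overlaps the antisense genes Gm16140 and Gm16141, and 3 unconfirmed transcript models on its own strand, Gm37818, 2900018N21Rik and 2610001A08Rik, also lie within it. The reads of these genes cannot be told apart from its own with the sources used here.

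Pbx2, a widely expressed partner of Meis and Hox proteins, overlaps Gpsm3, a gene for a regulator of G protein signalling, by 489 bases on the same strand of chromosome 17. Their joint row stood at 48.9 FPKM in Prmt5cKO and 59.0 FPKM in control, where the authors' deposited table gives a log2 fold change of -0.27 (q = 0.0225). It was called lower at q under 0.05 but not at q under 0.01. The median log2 fold change of tested single genes was -0.13, and the joint row lay at -0.14 relative to the median ratio of all genes. The share of Pbx2 in this row is unknown, so its level is not set beside those of the other members.

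In order of level, control forelimbs had Meis1, Meis2, Irx1, Irx2, Irx5, Irx3, Meis3 and Irx6 from highest to lowest. In Prmt5cKO forelimbs Irx1 was the seventh of 8, below Meis3 and above Irx6, and the other 7 kept their order. Without values per sample it cannot be said which neighbours in this order differ beyond their spread, and no gene is named for a pattern like these, since 2 values per gene give no pattern to compare. None of these genes was abundant. Of 11657 single genes with a mean of at least 1 FPKM, 24.5% had a lower control level than Meis1 and 17.0% a lower control level than Irx1.

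Summed over paralogues, the Irx and Meis members differed in their values. The 5 Irx members added up to 4.48 FPKM in Prmt5cKO and 8.62 FPKM in control, a Prmt5cKO sum of 51.9% of control. Irx1 made up 15.5% of the Irx sum in Prmt5cKO and 37.7% in control, and Irx2 was the largest part in Prmt5cKO with 34.4%, against 23.5% in control. Without Irx1 the Irx sum was 3.78 FPKM in Prmt5cKO and 5.37 FPKM in control, 70.4%. The Meis members added up to 11.3 FPKM in Prmt5cKO and 10.3 FPKM in control, 110% of control. The Meis sum was thus 2.52 times the sum of the 5 Irx members in Prmt5cKO and 1.19 times in control. These ratios depend on leaving out Irx4, which is not a member. With Irx4 the Irx sum was 6.08 FPKM in Prmt5cKO and 10.5 FPKM in control, 58.0%, and in control it lay above the Meis sum. The sum of the Irx members, with or without Irx1, was lower in Prmt5cKO also after rescaling by the median ratio and after quantile normalization. The Meis sum was higher in both settings, and none of these sums has a replicate error.

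**Figure D2:**
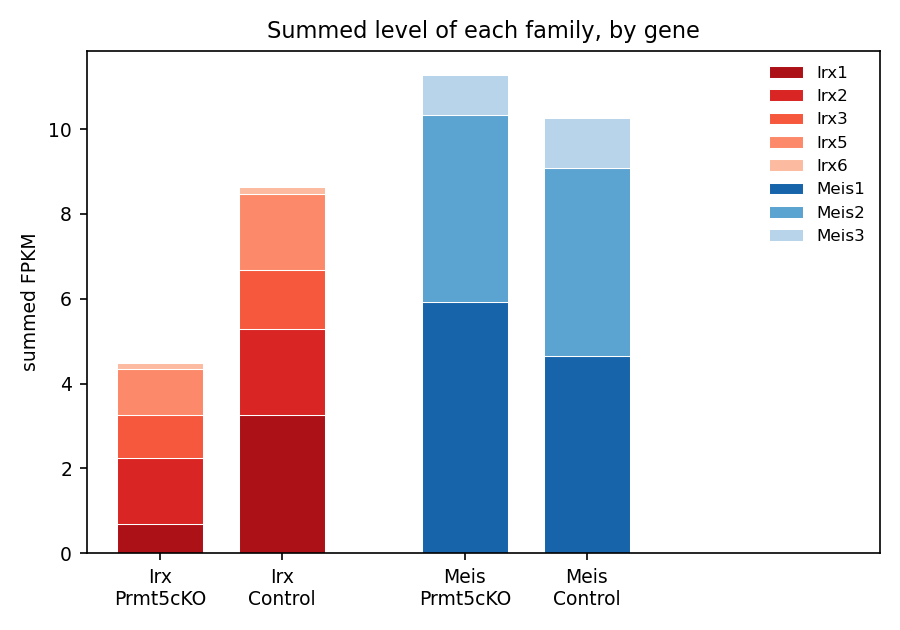
Summed FPKM (vertical axis) of the 5 Irx and the 3 Meis members, stacked by gene, with Prmt5cKO left of Control within each family. The Irx stack is 4.48 FPKM in Prmt5cKO against 8.62 FPKM in Control, and the Meis stack 11.3 FPKM in Prmt5cKO against 10.3 FPKM in Control.

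The Irx genes lie in 2 clusters, and the members of each were read in their order on the chromosome (GRCm38, GENCODE M21). Irx1 is at chr13:71957921-71963723 on the minus strand, 665 kb from Irx2 (chr13:72628820-72634198, plus strand), which is 626 kb from Irx4 (chr13:73260479-73269608, plus strand). Irx4, a paralogue best known from the ventricles of the heart, stood at 1.60 FPKM in Prmt5cKO and 1.85 FPKM in control (-0.21 on the log2 scale and q = 0.604, from the authors' deposited table). Along this cluster the log2 fold changes were thus -2.23, -0.40 and -0.21. Adamts16, the nearest coding gene on the other side of Irx1, lies 1116 kb away and was at 0.114 FPKM in Prmt5cKO and 0.134 FPKM in control.

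The second cluster runs from Irx3 (chr8:91798525-91802067, minus strand) over Irx5 (chr8:92357625-92376286, plus strand), 556 kb away, to Irx6 (chr8:92674288-92680956, plus strand), a further 298 kb. Its log2 fold changes, -0.44, -0.72 and -0.29, all lay below 0 and none passed the threshold. Crnde, a noncoding transcript that starts beside Irx5 on the opposite strand, stood at 1.16 FPKM in Prmt5cKO and 1.71 FPKM in control (-0.57 on the log2 scale and q = 0.372, from the authors' deposited table). Fto, an RNA demethylase gene 130 kb from Irx3 whose introns hold distant enhancers of Irx3 in mouse and human, fell to 23.4 FPKM in Prmt5cKO, against 28.0 FPKM in control (-0.26 on the log2 scale and q = 0.0187, from the authors' deposited table). Mmp2, a matrix protease gene beyond Irx6, had 73.3 FPKM in Prmt5cKO and 61.5 FPKM in control and did not pass (authors' deposited table, q = 0.122).

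**Figure D3:**
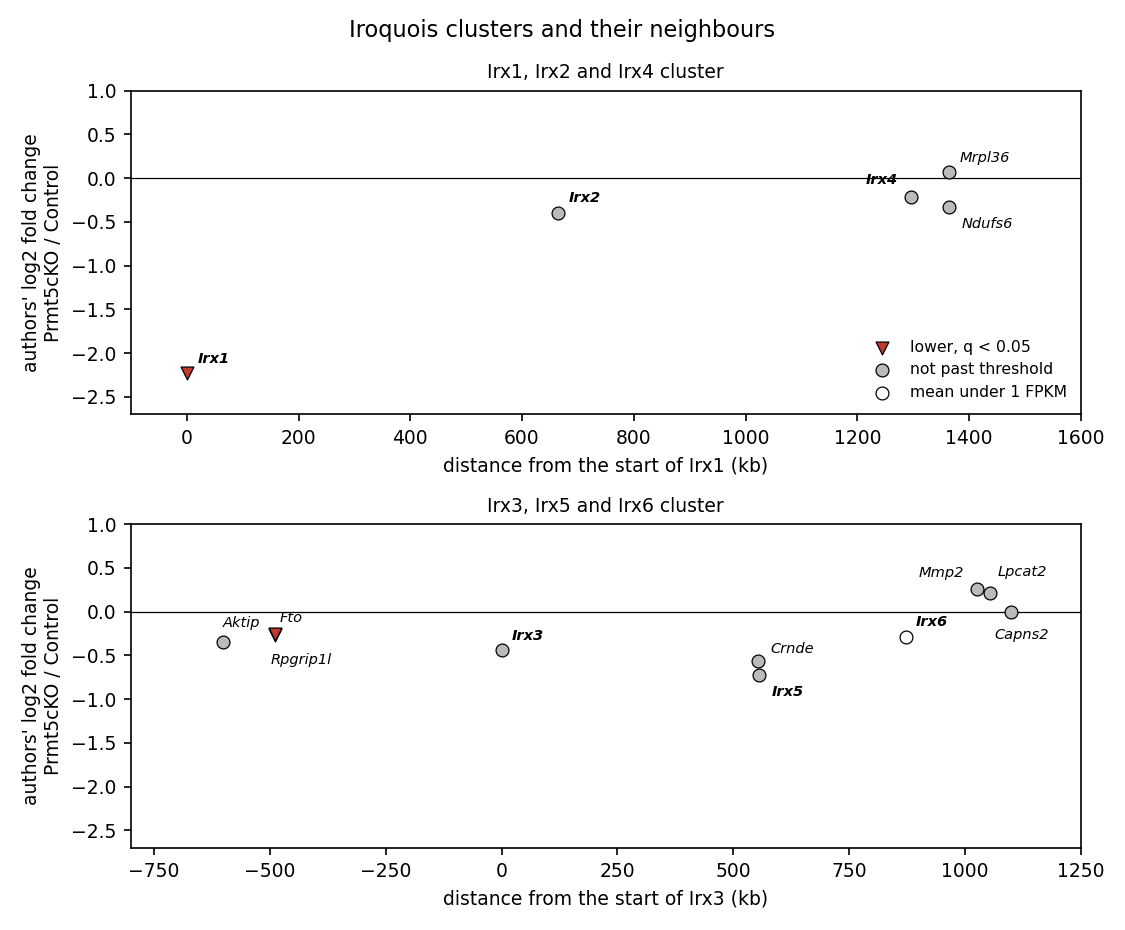
Authors' log2 fold change of Prmt5cKO over Control (vertical axis) against distance in kb from the start of Irx1 (upper panel) and of Irx3 (lower panel), for coding genes and Crnde in the Iroquois clusters and beside them. Red triangles mark rows called lower, grey circles rows not past the threshold and the open circle Irx6, whose mean is under 1 FPKM; Irx1 stands at -2.23, and Irx2 and Irx4 at -0.40 and -0.21, and the triangles of Fto and Rpgrip1l nearly coincide.

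The Meis genes lie apart from each other, Meis1 at chr11:18879817-19018985 (minus strand), Meis2 at chr2:115863064-116065839 (minus strand) and Meis3 at chr7:16175090-16186504 (plus strand), and Pbx2 is at chr17:34591266-34597400 (plus strand). Neither coding neighbour of Meis1 passed: Spred2, an inhibitor of Ras signalling, had 5.34 FPKM in Prmt5cKO and 4.63 FPKM in control, and Etaa1, a replication stress factor gene, 9.51 FPKM in Prmt5cKO and 10.8 FPKM in control. BC052040, 84.3 kb from Meis2, had 2.82 FPKM in Prmt5cKO and 3.15 FPKM in control. Dhx34, an RNA helicase gene 10.6 kb from Meis3, had 5.04 FPKM in Prmt5cKO and 5.89 FPKM in control, and Notch4 and Ager, the neighbours of the Gpsm3 and Pbx2 pair, did not pass either.

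The 250 bases before the RefSeq start (GRCm38.p6) of the 6 matched genes were searched on both strands for the Meis hexamer TGACAG, the Pbx and Hox site TGATTNAT, the retinoic acid receptor half-site AGGTCA and the TATA box TATAAA, none of which contains another. The first 3 had no match in any of the 6 windows, while 15.9%, 2.82% and 14.0% of 32851 promoters of the same length held them. TATAAA occurred once, 152 bases before the RefSeq start of Meis2, and in 12.4% of all promoters. Set against the GENCODE gene bounds given above, only the Irx2 window lies wholly upstream of its gene. Those of Irx3, Meis2, Meis3 and Pbx2 lie within the gene, and that of Meis1 overlaps its start. Sequence upstream of those GENCODE starts was thus largely not searched. A window without a match says only that these letters are not in it. The G and C content of the windows was between 47.6% (Meis2) and 77.6% (Pbx2), with a median of 52.4% over all promoters. Promoter sequences of Irx1, Irx5 and Irx6 were not analysed here.

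A list of 8 other TALE homeobox genes, drawn up by membership of the class, had the lower value in Prmt5cKO for each gene. The lower value was also that of Prmt5cKO in 69.8% of all 11657 single genes. Of these 8 genes 3 fell, 0 rose and 5 did not pass, where 17.5% of all rows at the minimum level were called lower and 4.44% higher. The median log2((FPKM + 1) ratio) of these 8 genes was -0.22, against -0.21 for the 8 members and -0.12 for all 11657 single genes. The added 1 FPKM shrinks the ratios of low genes most, and the members are mostly lower in level. Without it the median was -0.37 for the 8 members and -0.13 for all genes, so the closeness of -0.22 and -0.21 is not read as a likeness. Pbx3, a paralogue of Pbx2, fell to 14.2 FPKM in Prmt5cKO, against 17.1 FPKM in control (authors' deposited table, q = 0.0162). Tgif1, a corepressor of TGF-beta and retinoid signalling, fell to 26.0 FPKM in Prmt5cKO, against 32.5 FPKM in control, and Pknox2, a Meis-like partner of Pbx, to 4.63 FPKM in Prmt5cKO, against 5.76 FPKM in control, with q = 0.0115 and q = 0.0446 per the authors' deposited table. Pbx4 had 1.12 FPKM in Prmt5cKO and 1.75 FPKM in control, where the authors' deposited table gives a log2 fold change of -0.65 (q = 0.320). Pknox1 had 9.53 FPKM in Prmt5cKO and 10.6 FPKM in control, Tgif2 18.7 FPKM in Prmt5cKO and 21.4 FPKM in control, and the tendon factor Mkx 9.57 FPKM in Prmt5cKO and 10.7 FPKM in control. All 8 log2 ratios kept their sign after rescaling by the median ratio and after quantile normalization, but those of Pknox1, Mkx, Tgif2 and Irx4 then lay between -0.0051 and -0.0863.

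**Figure D4:**
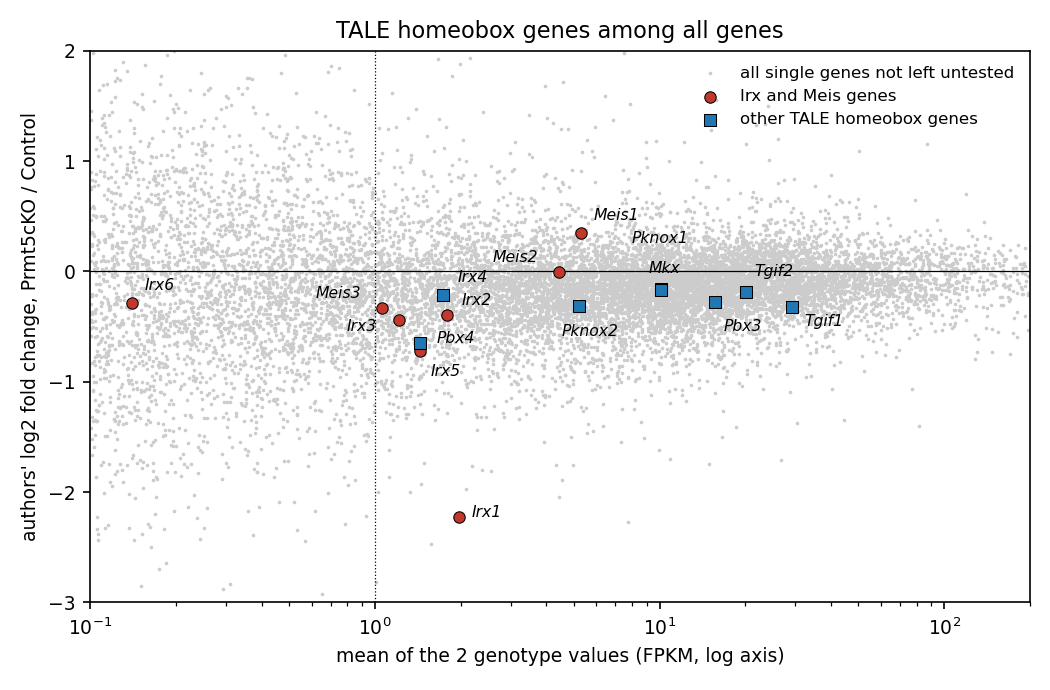
Authors' log2 fold change of Prmt5cKO over Control (vertical axis) against the mean of both genotype values in FPKM (horizontal log axis; dotted line at 1 FPKM), with the 8 members as red circles, 8 other TALE homeobox genes as blue squares and 13892 single genes as grey points, of which 325 lie beyond the axes. Irx1 at -2.23 lies at the lower edge of the points at its level, Meis1 at 0.35 above 0, and these other TALE genes between -0.65 and -0.16; the squares of Mkx and Pknox1 nearly coincide.

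The list of retinoic acid genes, whose link to Meis1 and Meis2 in these forelimbs was not tested, had 14 at the minimum level. Of these 5 fell and 0 rose, while 4 were left untested by the authors and 5 missed the threshold. Over all rows at that level 17.5% were called lower and 4.44% higher. Since 2161 of the 2709 calls over all rows were falls, the shared direction of the 5 falls is not read as a trait of the list. The list median was -0.15. Aldh1a2, the enzyme that makes retinoic acid, fell to 12.8 FPKM in Prmt5cKO, against 23.2 FPKM in control (-0.85 on the log2 scale and q = 2.68e-06, from the authors' deposited table). Rarb, a receptor gene induced by retinoic acid, fell to 1.37 FPKM in Prmt5cKO, against 2.84 FPKM in control, and Stra6, a retinol transporter gene, to 6.69 FPKM in Prmt5cKO, against 13.3 FPKM in control. Crabp2, a retinoic acid binding protein gene, fell to 179 FPKM in Prmt5cKO, against 256 FPKM in control. Cyp26b1, which degrades retinoic acid distally, was at 22.1 FPKM in Prmt5cKO and 20.2 FPKM in control and was not tested.

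Of 15 distal limb genes at the minimum level 4 rose and 1 fell, 9 missed the threshold and 1 was left untested. The list median was 0.13. Over all rows at that level 4.44% were called higher and 17.5% lower, the shares to set beside each count in this paragraph. The list includes ligands of the apical ridge such as Fgf8, so it is not a list of distal mesenchyme alone. Fgf8, the ligand of the apical ridge, rose to 14.4 FPKM in Prmt5cKO, against 7.17 FPKM in control, and the zinc finger gene Sall4 to 2.53 FPKM in Prmt5cKO, against 1.40 FPKM in control, with q = 1.19e-10 and q = 0.00223 per the authors' deposited table. Tfap2b rose to 11.8 FPKM in Prmt5cKO, against 8.17 FPKM in control, and the LIM homeobox gene Lhx2 to 27.9 FPKM in Prmt5cKO, against 20.2 FPKM in control. The 1 distal gene that fell was Hoxd12, to 39.1 FPKM in Prmt5cKO, against 51.7 FPKM in control (authors' deposited table, q = 0.00965). Of 8 proximal limb genes at the minimum level Tbx18 alone fell and 0 rose, 5 missed the threshold and 2 were left untested; the median was -0.05. Shox2, required for the upper arm skeleton, was at 44.7 FPKM in Prmt5cKO and 38.5 FPKM in control (authors' deposited table, q = 0.0653). Gli3, which acts with Irx3 and Irx5 in mouse limb progenitors, was at 22.7 FPKM in Prmt5cKO and 28.1 FPKM in control and was not tested. Of 5 Hox genes outside the distal group that had rows of their own at the minimum level, Hoxc6 rose, Hoxd8 fell and 3 did not pass.

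The tissue matched its label in part. Tbx5, the forelimb factor, was at 19.9 FPKM in Prmt5cKO and 23.0 FPKM in control, and the hindlimb factor Pitx1 at 0.268 FPKM in Prmt5cKO and 0.143 FPKM in control, but Tbx4, also a hindlimb marker, at 2.95 FPKM in Prmt5cKO and 3.81 FPKM in control. Prmt5 fell to 12.5 FPKM in Prmt5cKO, against 40.9 FPKM in control. Markers of other cell types were present in both groups, and of the macrophage list 9 of 13 genes at the minimum level rose (with the largest changes in Aif1, Tyrobp, Emr1 and C1qb) and 0 fell, where 4.44% of all rows were called higher, with a sum of 71.2 FPKM in Prmt5cKO and 37.5 FPKM in control. Of the nerve and Schwann cell list 2 of 6 at that level fell (Erbb3 and Gfra3), against 17.5% of all rows, and 7 more lay under it, with a sum over all 13 of 24.4 FPKM in Prmt5cKO and 26.7 FPKM in control. Of 9 muscle precursor genes at that level Myh3 fell and 0 rose, with a list sum in Prmt5cKO of 84.6% of control, while Myf5 and Lbx1, not past the threshold, stood at 129% and 142% of control. Of 11 endothelial genes Erg and Cd34 fell and 0 rose, with a sum of 92.8% of control. Of 9 red cell genes Alas2 fell and 0 rose, and the sum, 79.6% of control, is mostly Hbb-y. Of 15 genes of surface ectoderm and ridge Epcam, Sp6 and Sp8 rose and Krt15 fell, with a sum of 98.3% of control and 12 of the 15 ratios above the median of all genes. Of 9 limb mesenchyme genes Twist2 and Lum fell and Tbx3 rose. The shares of all rows to set beside each of these counts are the same, 17.5% called lower and 4.44% higher. Among the genes at that level the authors left untested 1 of the muscle, 2 of the endothelial, 1 of the red cell and 1 of the limb mesenchyme genes. The defining macrophage, muscle, nerve, endothelial and ectodermal genes measured were all above 0, and their part in the levels of the members was not tested.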

How the data were processed

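Illumina libraries were made from TRIzol-extracted total RNA, per the labels' protocols. The submitters' processing notes list, without roles, Bowtie2 2.1.0, TopHat2 2.0.10 and Cufflinks 2.1.1, with the build mm10. Per the file headers, the authors deposited for each row an FPKM value of each genotype, a log2 fold change (Prmt5cKO over control) and a q-value, or adjusted p-value. The sources used here do not give the test, the adjustment, the annotation or how replicates were combined. The deposited fold column differed from the log2 ratio of the FPKM columns by at most 1.28e-05 over 20663 rows. Rows above 0 FPKM whose fold is given as 0 and q as 1 were taken as untested. Of 28092 rows 4367 name no gene (2.08% of Prmt5cKO and 1.94% of control FPKM) and were left out.

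No values per sample were available to test, so the planned limma fit was not run, and every q is the authors' own. Computed here, with Python 3.11.15, pandas 2.3.3 and numpy 2.4.6, were log2 ratios with a pseudocount of 1 FPKM, which understates changes of low genes, and medians over single genes (1 row per symbol, above 0 in both genotypes). Rescaling by the median ratio was tested on simulated data with a planted change. For quantile normalization only the match of both distributions was checked, which the method itself produces. The members and gene lists were chosen with earlier results of these data known. The text names all members and all other listed TALE genes (1 more TALE gene is not reported here), of each other list the genes called (up to 4, those with the largest fold changes) plus Aldh1a2, Cyp26b1, Shox2, Gli3, Fgf8, Prmt5 and Tbx5, and coding neighbours; Crnde, Tbx4, Pitx1, Myf5, Lbx1, Hbb-y and sex-linked genes were added after their values were seen. Coordinates and homeoboxes are from GENCODE M21 on GRCm38, promoters from RefSeq GRCm38.p6.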

Additional observations from a re-analysis of the deposited data

How the results depend on the processing

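No paired analysis was possible because the tables hold 1 value per genotype, and for the same reason no replicate could be left out and no fit over samples was run. The count of members called lower was 1 with no minimum level and at q under 0.01, 0 with a minimum mean of 5 FPKM, which leaves out Irx1, and 2 if the joint Gpsm3 and Pbx2 row is counted for Pbx2 (added after seeing the data). The count called higher was 0 in each of these settings. The joint row, at -0.27 on the log2 scale, did not pass at q under 0.01. The median log2 ratio of the 8 members was -0.21 with a pseudocount of 1 FPKM, -0.34 with 0.1 FPKM, -0.36 with 0.01 FPKM, -0.37 with none, -0.14 after rescaling by the median ratio, -0.10 after quantile normalization and -0.24 without Irx6. Relative to all genes 3 members lay above and 5 below with a pseudocount of 1 FPKM, and 2 above and 6 below in the other 5 settings. Irx1 had log2 ratios of -2.10 after rescaling and -2.04 after quantile normalization. Summing repeated rows changed nothing, since no member has any. Unknown depth limits all statements on genes near 1 FPKM.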

Other observations

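Pbxip1, which encodes a protein that binds Pbx factors, was at 4.501 FPKM in Prmt5cKO and 7.23 FPKM in control, where the authors' deposited table gives a log2 fold change of -0.68 (q = 0.000109). Slc8a2, a sodium and calcium exchanger gene 14.0 kb from Meis3, was at 0.673 FPKM in Prmt5cKO and 1.24 FPKM in control, a mean under 1 FPKM (-0.88 on the log2 scale and q = 0.0101, from the authors' deposited table). Both were picked after their values were seen.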
